A study of Bactrocera dorsalis with 16 samples.

Results

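The fat body is described here as it changed between day 5 and day 9 after eclosion, the emergence of the adult, in female Bactrocera dorsalis, the oriental fruit fly. A gene was included when its mean level was at least 1 FPKM in fat body at day 5 or at day 9, and 8625 of the 13759 genes in the deposited table met this. FPKM, fragments per kilobase of transcript scaled to the mapped fragments of a library, is a level corrected for transcript length and library size. Of the 8625 genes, 7719 reached 1 FPKM at both ages, 530 at day 5 only and 376 at day 9 only. Across these classes, 432 of the 8625 were at least 10 times higher in each of the 2 day 9 ovary libraries than in the mean of day 9 fat body. These 432 were kept apart, because RNA of the ovary could be present in a fat body library, and 8193 genes remained.

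Both groups were females of a colony kept by the submitters, with no treatment, genotype or strain given. All flies were held at 28 °C with 12 h of light a day and an artificial diet of yeast extract and sugar. Each group had 2 libraries of RNA from fat body tissue, labelled as replicates 1 and 2. The study calls the 2 libraries of a group biological replicates, but the labels do not give how many flies went into each, so p-values measure the spread between these libraries. Fat body at days 1 and 13 and ovary at the same 4 ages, again with 2 libraries a group, completed the 16 libraries.

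The fat body of insects is a diffuse tissue that combines functions of the vertebrate liver and adipose tissue. It stores lipid and glycogen, secretes most proteins of the hemolymph, and answers infection by releasing antimicrobial peptides. During egg maturation it also secretes yolk proteins, which the growing oocytes take up. In higher flies the yolk proteins are made by the ovarian follicle cells as well as by the fat body.

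Some marker genes are given here as a description, and the fat body identity of the libraries was not tested. Apolipophorins (MSTRG.506), the protein backbone of the main lipid carrier of insect hemolymph and a gene chosen after its values were seen, stood at 1051 and 1128 FPKM at day 5 and at 1250 and 1439 FPKM at day 9, against 33.8 and 34.2 FPKM in day 9 ovary. Of 7 storage and iron carrier genes in the table, the 3 larval serum proteins, the hexamerins of larval fat body, were all below 1 FPKM at both ages. Muscle genes made up 5.31% and 5.33% of all summed FPKM at day 5 and 4.52% and 3.62% at day 9. The 30 muscle genes included no call, with a median log2 fold change of -0.33, and cuticle proteins were also present, as described below. The part of such genes in the other results was not tested. In such bulk samples fewer cells of a type and less RNA per cell cannot be told apart.

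Levels were compared with limma on log2(FPKM + 1), in a fit to all 16 libraries, with Benjamini-Hochberg adjustment over the 10213 genes that reached a mean of 1 FPKM in any group. A gene is called higher or lower when the adjusted p was under 0.05, and fold changes are day 9 minus day 5 on that scale, which understates the change of low genes. Of all genes tested, 11.1% were called. Among the 8193 genes, 1030 were called, which is 12.6%, with 484 higher at day 9 (5.91%) and 546 lower (6.66%). The called changes included 325 genes higher and 362 lower by at least 1 on the log2 scale, and 45 higher and 31 lower by at least 3. The number of calls depended on single libraries. It was 538 without day 5 replicate 1, 672 without day 5 replicate 2, 627 without day 9 replicate 2 and 913 without day 9 replicate 1, and 203 of the higher and 234 of the lower calls held in all 4 of these fits. Library correlations across genes were 0.965 within day 5, 0.954 within day 9 and between 0.905 and 0.924 across the ages. The lowest level at one age exceeded the highest at the other for 4595 of the 8193 genes (56.1%), so a gap between the groups is by itself common in these 4 libraries.

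**Figure D1:**
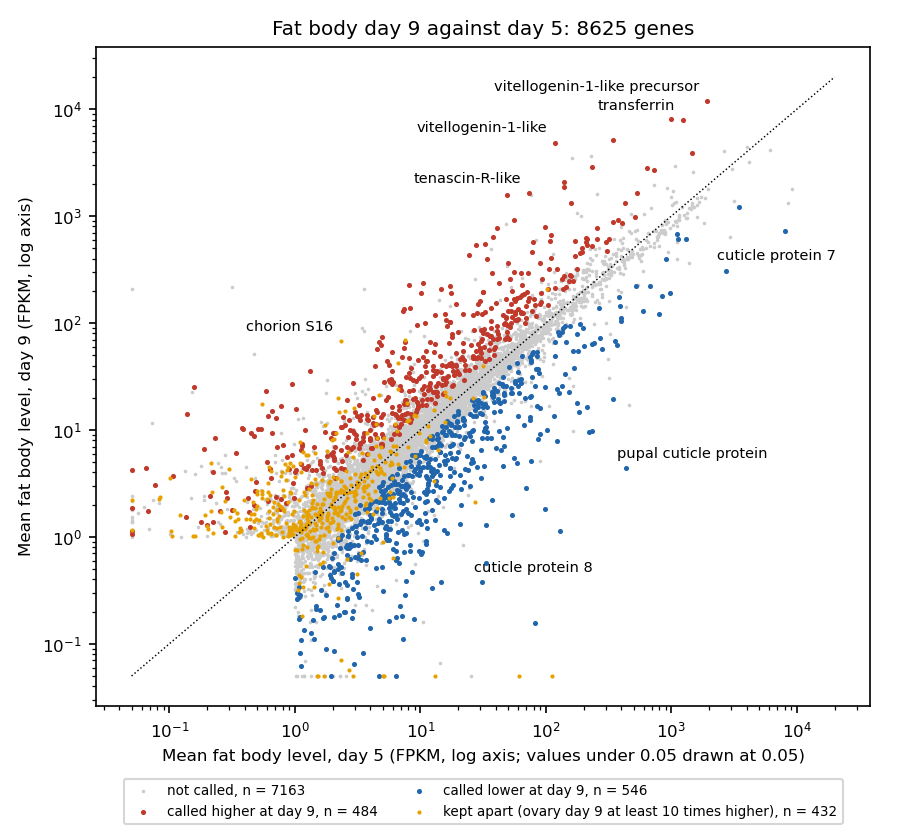
Mean fat body level at day 5 (x axis) and day 9 (y axis) in FPKM, both on log axes, for 8625 genes, with called genes in red (higher at day 9, 484) and blue (lower, 546) and the 432 genes kept apart in orange. The 2 labelled vitellogenins and transferrin lie far above the diagonal, and the 3 labelled cuticle proteins lie far below it.

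The most abundant transcripts of the fat body changed between the ages. Only 2 genes, the glycoprotein CREG1-like (MSTRG.8848) and a muscle-specific actin (MSTRG.5397), were among the 10 most abundant at both. At day 5 the first 10 held cuticle proteins and 3 genes with no product name, of which MSTRG.2126 averaged 9164 FPKM at day 5 and 1790 at day 9. At day 9 the first 5 were 3 vitellogenins, transferrin and an odorant-binding protein.

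Yolk protein transcripts rose in summed level. The 9 genes named vitellogenin summed to 3072 and 3483 FPKM at day 5 and to 27859 and 22142 FPKM at day 9, from 0.881% and 0.993% to 7.2% and 5.45% of all summed FPKM. The rise came from 3 of the 8 that were members, and the list's median log2 fold change was 0.17 beside -0.07 over the 8193 genes.

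Vitellogenin-1-like (MSTRG.10714) was at 144 and 92.2 FPKM at day 5 and at 4737 and 4959 FPKM at day 9. The groups were far apart, with a log2 fold change of 5.38 ± 0.34 (SE; limma adjusted p = 1.25e-05). Vitellogenin-2-like (MSTRG.3414) rose from 961 and 1014 to 8700 and 7595 FPKM, by 3.04 ± 0.15 (adjusted p = 4e-06). The vitellogenin-1-like precursor (MSTRG.3415) was the most abundant transcript at day 9, at 14190 and 9486 FPKM after 1719 and 2148 at day 5, a log2 fold change of 2.59 ± 0.23 (limma adjusted p = 8.74e-05). For all 3 of these, both day 9 libraries lay above both day 5 libraries. The 3 were already above their day 1 levels at day 5 and stood higher again at day 13, when MSTRG.10714 was at 11289 and 7205 FPKM.

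The remaining vitellogenin genes were not called. MSTRG.3980, a further vitellogenin-1-like, was at 173 and 155 FPKM at day 5 and at 149 and 57.5 FPKM at day 9 (log2 fold change -0.82 ± 0.36, adjusted p = 0.205). MSTRG.3977, vitellogenin-3-like, was at 11.4 and 9.06 and then at 11.3 and 13.1 FPKM, with overlapping groups. MSTRG.3974, MSTRG.3978 and MSTRG.3979 had libraries of 1 age that differed by more than the ages did, with fold changes of -0.46 ± 2.23, 0.11 ± 0.72 and -0.24 ± 1.14. Without day 9 replicate 1 the log2 fold change of MSTRG.3980 was -1.49. In day 5 ovary this gene was at 2373 and 2070 FPKM, and the rule for genes kept apart reads day 9 ovary only. After subtraction of the ovarian share, described below, it stood at 143 and 78.8 FPKM at day 5 and at 148 and 56.6 FPKM at day 9. The part of ovarian RNA in its level was not tested. MSTRG.10715 was listed at 0 in both day 5 libraries and at 0.000737 FPKM at most at day 9, so it was not a member. These names are shared between genes of similar product, and reads of near-identical copies could have been split among them.

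The same step in the ovary allowed a direct comparison for the yolk genes. In day 9 ovary MSTRG.10714 was at 4077 and 3368 FPKM, below both day 9 fat body libraries. Its rise from day 5 was smaller in fat body than in ovary by 1.70 on the log2 scale (difference -1.70 ± 0.48, limma interaction, adjusted p = 0.0254). The difference was -2.35 for MSTRG.3414 and -1.55 for MSTRG.3415, both past the threshold. For all genes tested, this difference between tissues passed for 2687 of 10213, or 26.3%.

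Other abundant transcripts that rose were chosen by the size of their change or as called members of a list. Those chosen by the size of their change also had to have groups that did not overlap. Transferrin (MSTRG.6582), which binds iron in the hemolymph, was at 1101 and 1388 FPKM at day 5 and at 7935 and 7760 FPKM at day 9. Both day 9 libraries lay far above both day 5 libraries, a log2 fold change of 2.67 ± 0.26 (limma adjusted p = 0.000149). A second gene named transferrin, MSTRG.4096, rose at a much lower level, from 13.7 and 14.9 to 53.5 and 45 FPKM (1.71 ± 0.27, adjusted p = 0.00234). Odorant-binding protein 99a-like (MSTRG.9806), of a family of small carriers of hydrophobic ligands, went from 390 and 293 to 7361 and 2973 FPKM. Its 2 day 9 libraries lay apart from each other and both above day 5 (3.79 ± 0.65, adjusted p = 0.00421). A gene named odorant-binding protein 99a (MSTRG.10949) went the other way, from 73 and 62.8 to 15.9 and 24.3 FPKM (-1.73 ± 0.39, adjusted p = 0.0173), and its call ended without either day 5 library or day 9 replicate 1. Of 17 odorant-binding and chemosensory genes 2 were called higher and 1 lower, beside 5.91% and 6.66% of the 8193 genes. Venom carboxylesterase-6 (MSTRG.1030), a secreted esterase by its name, rose from 169 and 150 to 1146 and 1533 FPKM (3.05 ± 0.33, adjusted p = 0.000268). Of 8 genes for lipid carriage and lipid droplets none was called higher and 1 was called lower, and apolipophorins had a log2 fold change of 0.30 ± 0.24 (adjusted p = 0.533).

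**Figure D2:**
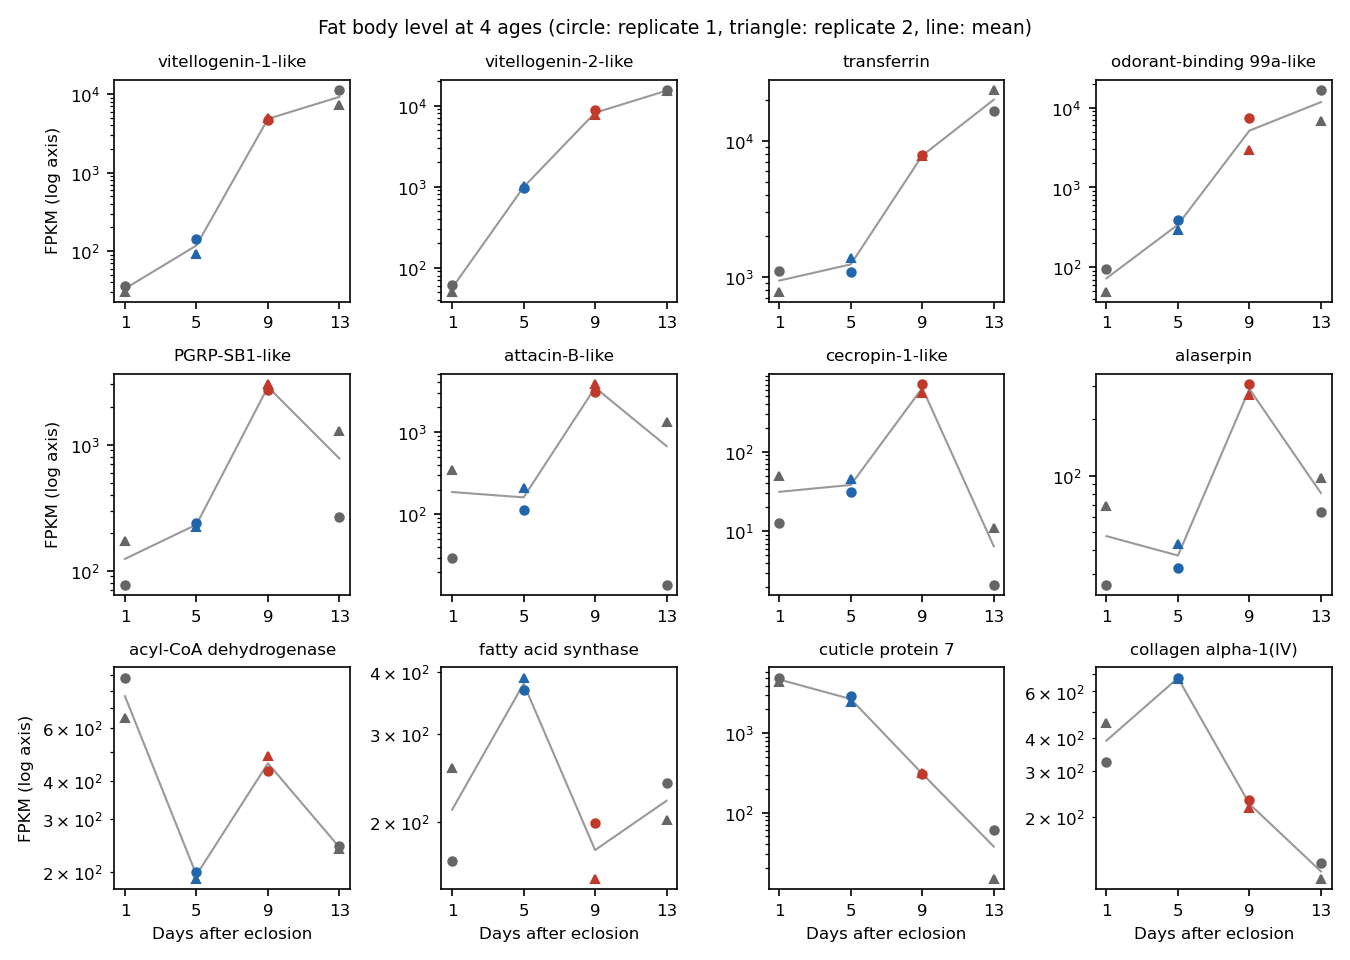
Fat body level in FPKM (log axes) of 12 genes at days 1, 5, 9 and 13, with both libraries of each age as points, day 5 in blue and day 9 in red, and the mean as a line. Vitellogenins, transferrin and the odorant-binding protein climbed through day 13, whereas the peptidoglycan-recognition protein, the cecropin and alaserpin were highest at day 9 and both cuticle protein 7 and collagen fell from day 5 on.

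Genes of innate immunity had more higher than lower calls at day 9. Insects detect bacterial cell wall by peptidoglycan-recognition proteins, and the fat body then releases antimicrobial peptides under control of the Toll and Imd pathways. Of 26 genes for immune recognition and signalling, 8 were called higher and 1 lower, beside 5.91% and 6.66% of the 8193 genes, and the list's median log2 fold change was 0.48. Without any 1 of the 4 libraries 7 or 8 of them were called higher.

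Of the peptidoglycan-recognition proteins, SB1-like (MSTRG.10314) was at 17.9 and 16.4 FPKM at day 5 and at 205 and 243 FPKM at day 9 (3.63 ± 0.57, adjusted p = 0.00247). A second SB1-like gene (MSTRG.1116), named after its values were seen like MSTRG.10313 and MSTRG.8385 below, was more abundant, at 240 and 223 and then 2694 and 3032 FPKM (3.62 ± 0.63, adjusted p = 0.00431). An LB-like gene (MSTRG.10313) rose from 22 and 21.8 to 121 and 122 FPKM (2.42 ± 0.43, adjusted p = 0.00484). In Drosophila, SB1 and LB are amidases that cleave peptidoglycan, and LB damps the Imd response. The groups of these 3 genes did not overlap, which was a condition for naming MSTRG.10314. At day 13 the libraries of MSTRG.1116 stood at 266 and 1285 FPKM.

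Called genes of this list that are not peptidoglycan-recognition proteins included 3 described here. NF-kappa-B inhibitor cactus (MSTRG.8385), the brake on Toll signalling, was at 22.5 and 28.5 FPKM at day 5 and at 71 and 52.3 FPKM at day 9 (1.23 ± 0.21, adjusted p = 0.0037). NF-kappa-B essential modulator (MSTRG.2432), a scaffold of the kinase complex in the Imd pathway, rose from 64.9 and 66.7 to 125 and 124 FPKM (0.91 ± 0.11, adjusted p = 0.000648). CD109 antigen (MSTRG.9915), a secreted thioester protein of a family that includes opsonins, rose from 168 and 171 to 431 and 414 FPKM (1.31 ± 0.14, adjusted p = 0.000231). For each of these the groups did not overlap and the call held without any 1 library. The call of MSTRG.8385 ended in a fit to the 4 libraries compared, and that of MSTRG.10313 in a fit to the 8 fat body libraries.

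Of 11 genes for antimicrobial peptides and lysozymes 2 were called higher by limma, beside 5.91% of the 8193 genes, and their median log2 fold change was 1.35. Fewer were called when any 1 of the 4 libraries was left out. Cecropin-1-like (MSTRG.10389), a pore-forming peptide, was at 31.5 and 44.9 FPKM at day 5 and at 715 and 551 FPKM at day 9 (4.02 ± 0.94, adjusted p = 0.0212). A second cecropin (MSTRG.10386) rose from 2.75 and 17.6 to 133 and 247 FPKM (4.45 ± 0.94, adjusted p = 0.0125). The call of MSTRG.10389 ended without any 1 of the 4 libraries (adjusted p between 0.0733 and 0.129), and that of MSTRG.10386 without day 5 replicate 1 (adjusted p = 0.115) or day 9 replicate 2 (0.0884). The call of MSTRG.10386 also ended in fits to the 4 libraries compared and to the 8 fat body libraries, and that of MSTRG.10389 with quantile normalization. The cecropin names are shared by 4 genes that may exchange reads.

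Attacin-B-like (MSTRG.7668) was at 114 and 209 FPKM at day 5 and at 3076 and 3851 FPKM at day 9. Its groups lay far apart, yet the test was not passed (4.47 ± 1.76, adjusted p = 0.152). The spread in that fit comes from all 16 libraries, and the gene was at 30 and 344 FPKM at day 1 and at 13.8 and 1337 FPKM at day 13. The same held for attacin-B-like MSTRG.1100, at 65.2 and 88 and then 1455 and 1711 FPKM (adjusted p = 0.107), and for diptericin-like (MSTRG.9420), at 189 and 195 and then 683 and 1311 FPKM (adjusted p = 0.443). In a fit to the 4 libraries compared, 4 of the 11 were called higher. The attacin and diptericin genes were chosen after their values were seen.

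Serine proteases, their inhibitors and melanization genes held calls in both directions. Clip-domain proteases such as easter and snake work in cascades that end in Toll activation or in melanin, and serpins stop them. Of 37 such genes 15 were called higher and 5 lower, beside 5.91% and 6.66% of the 8193 genes, with a median log2 fold change of 0.50. Fewer were called higher when any 1 of the 4 libraries was left out. Serine protease easter (MSTRG.10385) was at 6.16 and 3.58 FPKM at day 5 and at 65.3 and 60.5 FPKM at day 9 (3.48 ± 0.52, adjusted p = 0.00184). Alaserpin-like (MSTRG.3359) rose from 58 and 67.1 to 167 and 183 FPKM (1.47 ± 0.15, adjusted p = 0.000216), and alaserpin (MSTRG.3360), chosen after its values were seen, from 32 and 43.1 to 310 and 271 FPKM (2.93 ± 0.37, adjusted p = 0.000725). A yellow-like gene (MSTRG.8889), of a family with members in pigment formation, rose from under 1 FPKM to 10.8 and 6.1 FPKM (2.90 ± 0.27, adjusted p = 0.000135).

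Members of this list also fell. Serpin B13 (MSTRG.6413) was at 16.8 and 14 FPKM at day 5 and at 1.03 and 1.27 FPKM at day 9, a fall by 2.93 on the log2 scale (SE 0.19, adjusted p = 1.25e-05). Laccase-1 (MSTRG.5986), an oxidase of the kind that tans cuticle, fell from 86.5 and 66.1 to 5.98 and 4.28 FPKM (-3.66 ± 0.69, adjusted p = 0.00677). Its call ended without day 5 replicate 1 (adjusted p = 0.0577) or day 9 replicate 2 (0.0516). The other 3 that fell were a second laccase-1 gene and 2 genes of the yellow family, which are known from the tanning and pigmentation of cuticle.

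Small protease inhibitors and lectins of the fibrinogen type were grouped after their values were seen, so the counts only describe them. Of 16 fibrinogen-like genes 7 were called higher and none lower, beside 5.91% and 6.66% of the 8193 genes. Tenascin-R-like (MSTRG.6616) went from 75.1 and 72.7 to 1655 and 1616 FPKM (4.45 ± 0.50, limma adjusted p = 0.000369). Ryncolin-2-like (MSTRG.283) went from 9.79 and 9.16 to 122 and 69.1 FPKM (3.15 ± 0.52, adjusted p = 0.00318). Fibrinogen-like proteins of arthropods include lectins that bind microbial surfaces, whereas tenascin-R itself is a vertebrate matrix protein, so the name says only that the domain is shared. Of 10 inhibitor genes 7 were called higher, falling to 4 without day 5 replicate 1. CTLA-2-alpha (MSTRG.1278), which resembles the inhibitory part of a cysteine protease, rose from 0.913 and 0.647 to 14.5 and 19.1 FPKM (3.31 ± 0.40, adjusted p = 0.000534). Sarcocystatin-A-like (MSTRG.9836), a cysteine protease inhibitor, was at 0.936 and 15.6 and then at 222 and 54.6 FPKM (4.30 ± 0.98, adjusted p = 0.018). Its call ended without day 5 replicate 1 or day 9 replicate 1, and in fits to the 4 libraries compared and to the 8 fat body libraries.

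**Figure D3:**
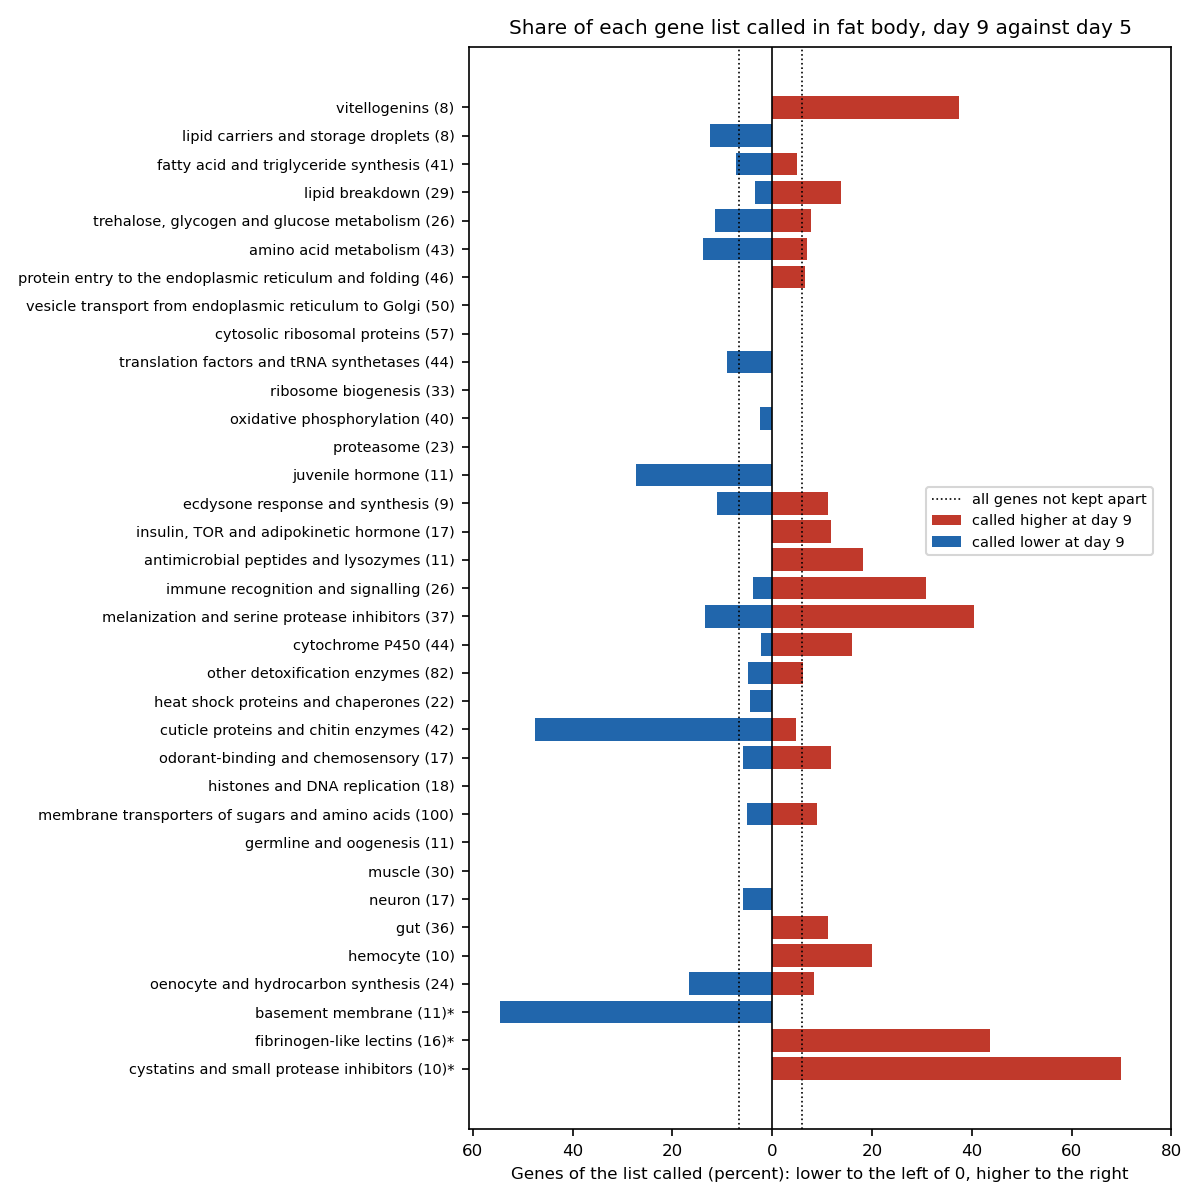
Share of the genes of each list called higher (red, right of 0) or lower (blue, left of 0) at day 9, in percent, with the number of genes in brackets and the shares over all 8193 genes, 5.91% and 6.66%, as dotted lines; lists with an asterisk were put together after the values were seen. Immune recognition and melanization extend to the right, and cuticle proteins extend to the left.

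Lipid metabolism had calls in both directions. Fatty acids enter mitochondria through carnitine palmitoyltransferase and are shortened there by beta-oxidation, whereas acetyl-CoA carboxylase and fatty acid synthase build them in the cytosol. Of 29 genes of lipid breakdown 4 were called higher and 1 lower (median 0.19), and of 41 genes of fatty acid and triglyceride synthesis 2 were called higher and 3 lower (median -0.14). Over the 8193 genes, 5.91% were called higher and 6.66% lower, and the counts of the synthesis list lie near these shares. Fewer genes of the synthesis list were called higher when any 1 of the 4 libraries was left out.

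Carnitine O-palmitoyltransferase 1 (MSTRG.8063) was at 49.4 and 48.3 FPKM at day 5 and at 96.2 and 97.3 FPKM at day 9 (0.97 ± 0.15, limma adjusted p = 0.00231). Medium-chain specific acyl-CoA dehydrogenase (MSTRG.10007), the first enzyme of a beta-oxidation round, rose from 200 and 189 to 432 and 487 FPKM (1.23 ± 0.19, adjusted p = 0.00192). Mitochondrial 3-ketoacyl-CoA thiolase (MSTRG.4034), which ends the round, rose from 136 and 140 to 275 and 275 FPKM (0.99 ± 0.16, adjusted p = 0.00277). In all 3 the groups did not overlap. Day 1 levels were higher still, at 886 and 650 FPKM for MSTRG.10007, and day 13 levels were 244 and 238 FPKM.

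The synthesis list included calls each way. Putative phosphatidate phosphatase (MSTRG.1126), of a family of enzymes on the way to triglyceride, rose from 14.8 and 17.2 to 32.4 and 28.5 FPKM (0.89 ± 0.16, adjusted p = 0.00501), a call that ended without day 5 replicate 1. Acetyl-CoA carboxylase (MSTRG.8122) fell from 186 and 169 to 87.6 and 71.7 FPKM (-1.15 ± 0.20, adjusted p = 0.00394). Fatty acid synthase (MSTRG.749) fell from 369 and 390 to 199 and 154 FPKM (-1.11 ± 0.19, adjusted p = 0.00415). The lipid storage droplet protein Lsd-1 (MSTRG.10985), which coats lipid droplets and controls access of lipases in Drosophila, was at 275 and 256 and then at 119 and 159 FPKM (-0.94 ± 0.19, adjusted p = 0.00928). That last call ended without day 5 replicate 1 (adjusted p = 0.0756) or day 9 replicate 1 (0.064), while the 2 enzymes stayed called without each library. In the fit to the 4 libraries compared the calls of MSTRG.749, MSTRG.1126 and MSTRG.10985 ended. That of MSTRG.749 also ended in the fit to the 8 fat body libraries.

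Sugar metabolism had 2 of 26 genes called higher and 3 lower, near the shares of 5.91% and 6.66% over all 8193 genes. The counts were 1 and 1 without day 5 replicate 1, 3 and 1 without day 5 replicate 2, 1 and 4 without day 9 replicate 1, and 1 and 2 without day 9 replicate 2. Glycogen phosphorylase (MSTRG.2622), which releases glucose units from glycogen, fell from 897 and 901 to 427 and 364 FPKM (-1.19 ± 0.15, adjusted p = 0.000659). Trehalose-phosphate synthase (MSTRG.7927), which makes the precursor of trehalose, the blood sugar of insects, went from 1110 and 1131 to 543 and 688 FPKM (-0.87 ± 0.22, adjusted p = 0.0293). This gene was chosen after its values were seen, and its call ended without either day 5 library or day 9 replicate 1 (adjusted p = 0.129, 0.121 and 0.14). L-lactate dehydrogenase (MSTRG.10109) rose from 63 and 63.3 to 116 and 134 FPKM (0.97 ± 0.14, adjusted p = 0.00143). Phosphoenolpyruvate carboxykinase (MSTRG.1223), the entry enzyme of gluconeogenesis, was at 6.45 and 56.6 and then at 156 and 234 FPKM (3.21 ± 0.78, adjusted p = 0.0252). The day 5 libraries of MSTRG.1223 lay far apart, and its call ended without day 5 replicate 1, day 9 replicate 1 or day 9 replicate 2. It also ended in fits to the 4 libraries compared and to the 8 fat body libraries.

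**Figure D4:**
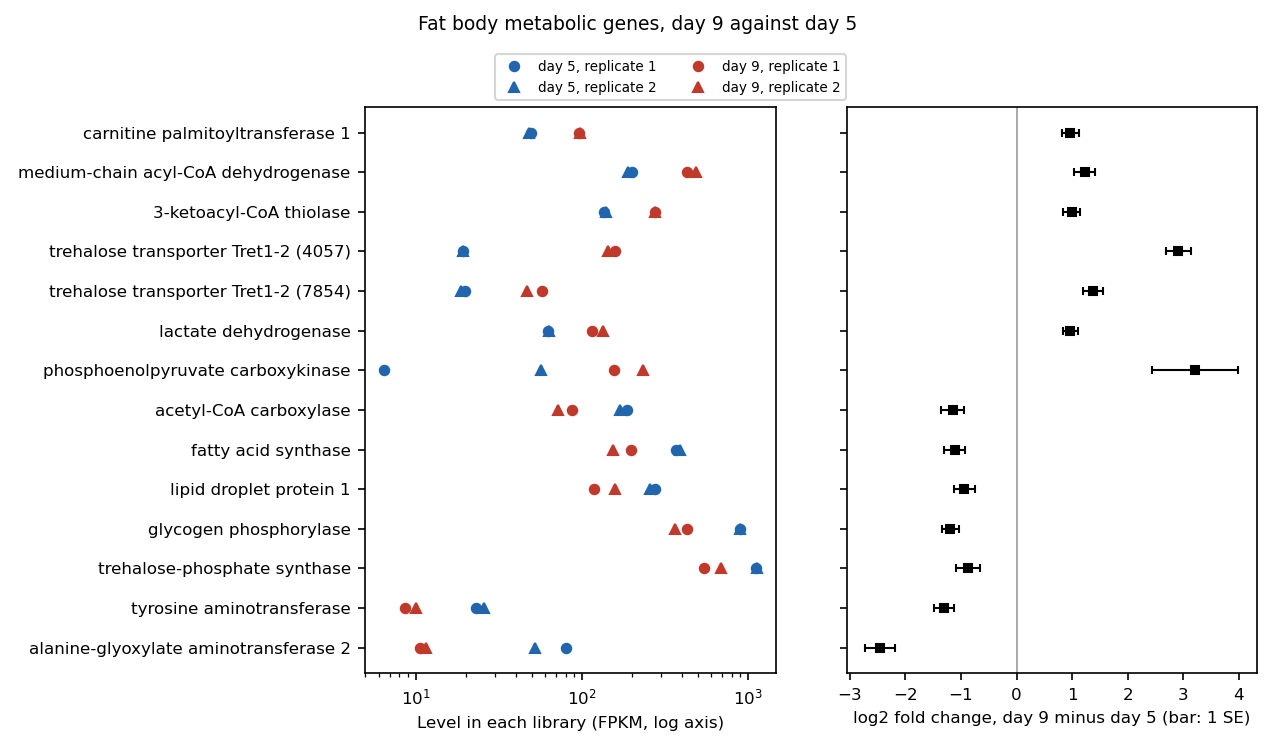
Left, level of 14 metabolic genes in each fat body library of day 5 (blue) and day 9 (red) in FPKM on a log axis; right, the log2 fold change with 1 SE as a bar. The beta-oxidation enzymes and trehalose transporters lie to the right of 0 and the enzymes of fatty acid synthesis, glycogen and trehalose to the left.

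Transporters included 9 of 100 genes called higher and 5 lower, near the shares of 5.91% and 6.66% over the 8193 genes. Both counts fell when any 1 of the 4 libraries was left out. Facilitated trehalose transporter Tret1-2 (MSTRG.4057), which carries trehalose across the cell membrane along its gradient, rose from 19.3 and 19.2 to 158 and 143 FPKM (2.91 ± 0.23, adjusted p = 4.44e-05). A second gene of that name (MSTRG.7854) rose from 19.8 and 18.8 to 57.5 and 46.8 FPKM (1.38 ± 0.18, adjusted p = 0.00079). The ovary expressed MSTRG.4057 at 65.9 and 76.4 FPKM at day 9, and MSTRG.7854 at 0.62 and 0.531 FPKM.

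Amino acid metabolism had 3 of 43 genes higher and 6 lower, beside 5.91% and 6.66% of the 8193 genes, and only 1 was called higher without any 1 of the 4 libraries. Tyrosine aminotransferase (MSTRG.1106), which starts the breakdown of tyrosine, fell from 23.2 and 25.8 to 8.62 and 10.1 FPKM (-1.30 ± 0.18, adjusted p = 0.00133). Alanine-glyoxylate aminotransferase 2-like (MSTRG.8754) fell from 80.7 and 52 to 10.6 and 11.5 FPKM (-2.45 ± 0.27, adjusted p = 0.000305). The call of either gene held without each library. Detoxification genes lay near the background, with 5 of 82 higher and 4 lower (1 lower without day 5 replicate 1 and 2 without day 9 replicate 2), and 7 of 44 cytochrome P450 genes were higher and 1 lower. UDP-glucuronosyltransferase 2B33 (MSTRG.4934), which conjugates small lipophilic compounds, rose from 11.8 and 17.5 to 190 and 226 FPKM (3.75 ± 0.41, adjusted p = 0.000292). Cytochrome P450 6g1-like (MSTRG.147) rose from 20.4 and 19.4 to 84.2 and 80.8 FPKM (2.0 ± 0.22, adjusted p = 0.000287). Cyp6g1 is the gene tied to insecticide resistance in Drosophila.

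The machinery that makes and exports protein showed few calls, set beside 5.91% called higher and 6.66% lower over the 8193 genes. None of 57 cytosolic ribosomal proteins and none of 50 genes of vesicle transport from endoplasmic reticulum to Golgi was called by limma, and 3 of 46 genes for entry into the endoplasmic reticulum and folding were called higher. That last count was 1 without day 5 replicate 1 or day 9 replicate 1, 2 without day 9 replicate 2 and 0 in the fit to the 4 libraries compared. The ribosomal proteins had a median log2 fold change of -0.24, which was -0.11 with median-of-ratios scaling and -0.48 with quantile normalization, when 16 were called lower. Of 40 oxidative phosphorylation genes 1 was called lower, and of 23 proteasome genes none was called. Translation factors and tRNA synthetases had 4 of 44 lower and none higher, and none was called lower without day 5 replicate 1 or without day 9 replicate 2.

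Hormone-linked genes were mostly not called, as were the 8193 genes, of which 5.91% were called higher and 6.66% lower. Juvenile hormone and ecdysone control vitellogenesis in flies, and insulin and TOR signalling link it to nutrition. Of 11 genes in the juvenile hormone list 3 were called lower, and all 3 were takeout genes, of a family of secreted carriers whose ligand is not established in this fly. Takeout-like MSTRG.2374 fell from 19.4 and 15.9 to 2.67 and 3.06 FPKM (-2.26 ± 0.31, adjusted p = 0.00118), and takeout-like MSTRG.2372 from 38 and 48.4 to 14.1 and 16.1 FPKM (-1.45 ± 0.26, adjusted p = 0.00542). The call of MSTRG.2372 ended with a pseudocount of 0.1. The call of the takeout gene MSTRG.6236 (adjusted p = 0.00543) ended without day 5 replicate 1 (0.0592). The ecdysone list had 1 of 9 genes higher and 1 lower, and none was called higher without any 1 of the 4 libraries. In the insulin and TOR list 2 of 17 genes were called higher and none lower. Translation initiation factor 4E-binding protein (MSTRG.8395), a repressor of translation under TOR, was at 10.1 and 13.6 and then at 62.9 and 70.8 FPKM (2.41 ± 0.66, adjusted p = 0.0412). IMP-L2 (MSTRG.10113), which binds insulin-like peptides in Drosophila, rose from 14.4 and 13.2 to 27.7 and 27.3 FPKM (0.94 ± 0.25, adjusted p = 0.0356). Although the groups of both genes were apart, neither call held when any 1 of the 4 libraries was left out.

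Cuticle proteins were lower at day 9 as a group. These proteins bind chitin in the exoskeleton and are known as products of the epidermis. Of 92 genes for cuticle proteins and chitin enzymes, 42 were members, with a median log2 fold change of -1.65. Of these members 20 were called lower and 2 higher, beside 6.66% and 5.91% of the 8193 genes. Between 16 and 18 were called lower when 1 library was left out. Their share of all summed FPKM was 4.15% and 3.56% at day 5 and 1.32% and 1.27% at day 9.

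Pupal cuticle protein (MSTRG.1623) was at 469 and 396 FPKM at day 5 and at 4.56 and 4.18 FPKM at day 9, a log2 fold change of -6.33 ± 1.04 (adjusted p = 0.00326). Larval cuticle protein LCP-30 (MSTRG.2130) fell from 132 and 66.1 to 1.11 and 2.52 FPKM (-5.11 ± 0.40, adjusted p = 4.44e-05), and cuticle protein 8 (MSTRG.3006) from 38.2 and 24.1 to 0.313 and 0.442 FPKM (-4.51 ± 0.25, adjusted p = 7.01e-06). These 3 were picked by a rule that required groups without overlap, so the gap between their libraries is no added support. The call of MSTRG.1623 ended with a pseudocount of 0.1. The endocuticle glycoproteins ABD-4 (MSTRG.2131), SgAbd-2 (MSTRG.887) and SgAbd-5 (MSTRG.11134) also fell, with log2 fold changes of -4.38, -4.08 and -3.46, and that of cuticle protein 16.5 (MSTRG.6578) was -3.57. Among the called members of the list cuticle protein 7 (MSTRG.3009), chosen after its values were seen, had the highest level at day 5, at 2912 and 2496 FPKM and then at 307 and 311 FPKM (-3.12 ± 0.49, adjusted p = 0.00262). It continued a decline from 5052 and 4484 FPKM at day 1 to 59.9 and 14.5 FPKM at day 13. The course before day 5 differed among the named genes. MSTRG.2130 also fell from day 1, when it was at 831 and 572 FPKM. MSTRG.1623 rose to its day 5 level from 28.8 and 56.4 FPKM at day 1. MSTRG.2131, MSTRG.887, MSTRG.3006, MSTRG.6578 and MSTRG.11134 also had higher means at day 5 than at day 1. The list's share of all summed FPKM was 4.0% and 3.73% at day 1.

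Not every cuticle gene fell. Cuticle protein 16.8 (MSTRG.4089), also chosen after its values were seen, was at 313 and 366 FPKM at day 5 and at 708 and 1066 FPKM at day 9 (1.36 ± 0.37, adjusted p = 0.0397). Its call ended without either day 5 library (adjusted p = 0.204 and 0.109) or day 9 replicate 2 (0.234).

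Further genes that fell were chosen by the size of their change among genes whose groups did not overlap, except the 2 aminotransferase genes. Of these MSTRG.1383 was taken as a called gene of the amino acid metabolism list and is among its 6 lower calls. Of 4 genes in the hexosamine and chitin synthesis list, made after values were seen, 2 were called lower, beside 6.66% of the 8193 genes. Glutamine-fructose-6-phosphate aminotransferase, the entry enzyme of the hexosamine pathway that supplies chitin, had 2 genes. MSTRG.1383 fell from 115 and 90.1 to 9.51 and 10.4 FPKM (-3.23 ± 0.27, adjusted p = 6.4e-05), and MSTRG.1384, chosen after its values were seen, from 97.1 and 136 to 14.1 and 13.1 FPKM (-2.99 ± 0.54, adjusted p = 0.00542). Mucin-19 (MSTRG.3619) fell from 239 and 186 to 16.8 and 15.9 FPKM (-3.62 ± 0.46, adjusted p = 0.000708). A cyclic nucleotide-gated channel (MSTRG.6469) fell from 66.5 and 71.4 to 1.93 and 3.79 FPKM (-4.22 ± 0.32, adjusted p = 3.88e-05), and slit homolog 2 (MSTRG.6118), a guidance protein, from 21.6 and 19.6 to 2.46 and 0.173 FPKM (-3.42 ± 0.42, adjusted p = 0.000632). The call of MSTRG.6118 ended in a fit to the 4 libraries compared, and that of MSTRG.1384 in a fit to the 8 fat body libraries.

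Collagen IV and its partners form basement membranes, and in Drosophila the larval fat body is a main source of this collagen. The list of 11 basement membrane genes was made after values were seen, so its counts only describe it. Of the 11, 6 were called lower and none higher, beside 6.66% and 5.91% of the 8193 genes, with a median of -1.06. The collagen alpha-1(IV) gene MSTRG.4165 was at 678 and 672 FPKM at day 5 and at 231 and 217 FPKM at day 9 (-1.59 ± 0.17, adjusted p = 0.000243). The second, MSTRG.4168, was at 384 and 395 and then at 146 and 145 FPKM (-1.42 ± 0.15, adjusted p = 0.000273). The groups of both genes did not overlap.

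Markers of other cell types were counted beside these results, against 5.91% called higher and 6.66% lower over the 8193 genes. The summed level of the 10 hemocyte genes was 175 and 177 FPKM at day 5 and 231 and 230 at day 9. Their median log2 fold change was 0.07, beside -0.07 over the 8193 genes. The 2 called higher were both genes of croquemort, a scavenger receptor. MSTRG.8383 was at 18 and 18.7 and then 32 and 48.4 FPKM (1.06 ± 0.16, limma adjusted p = 0.00231). MSTRG.2919, croquemort-like, was at 27.4 and 32.3 and then 60.1 and 55.9 FPKM. The 36 gut genes summed to 1856 and 2355 FPKM and then to 3135 and 2841, with 4 called higher. These 4 included aminopeptidase N-like (MSTRG.1559), which went from 9.73 and 8.59 to 27.4 and 29.9 FPKM (1.55 ± 0.17, adjusted p = 0.000335). The 24 genes of oenocytes, the hydrocarbon-making cells under the epidermis, had 2 higher and 4 lower, and 1 higher and 2 lower without day 5 replicate 1 or day 9 replicate 2. They included a fatty acyl-CoA reductase (MSTRG.558) that went from 21.7 and 19 to 7.82 and 9.58 FPKM (-1.14 ± 0.17, adjusted p = 0.00192). Another gene of the same product name went the other way, from 2.58 and 2.58 to 7.72 and 5.98 FPKM (1.12 ± 0.21, limma adjusted p = 0.00587). That higher call ended in a fit to the 4 libraries compared. None of 30 muscle genes and 1 of 17 neuron genes was called. Without day 9 replicate 2 the gut count was 2, and the hemocyte count was 1 without any 1 of the 4 libraries. Their part in the results was not tested.

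The 432 genes kept apart for a high ovary level were counted on their own. Of them 70 were called higher (16.2%) and 12 lower (2.78%), beside 5.91% and 6.66% of the 8193 genes. Their median log2 fold change was 0.14. Of these, 6 were at 0 in both day 9 fat body libraries, where any ovary level meets the ratio. Together they made up 0.352% and 0.462% of all summed FPKM in day 5 fat body and 0.535% and 0.366% in day 9 fat body, and the ages overlapped.

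The germline markers vasa, nanos, oskar, ovo and cup were read in each fat body library. The fat body level as a share of the ovary mean of that age, as a median over 5 markers, was 1.33% and 3.44% at day 5 and 3.95% and 2.92% at day 9, and it was 0.662% and 0.542% at day 13. Oskar (MSTRG.1212), which assembles germ plasm, was at 0.345 and 0.749 FPKM and then at 2.67 and 1.94 FPKM in fat body, against 106 and 100 FPKM in day 9 ovary (1.10 ± 0.19, adjusted p = 0.00395). By this median, day 5 replicate 1 had a lower share than the other day 5 library and both day 9 libraries. The single markers spread widely, from 0.891% to 10.06% in day 5 replicate 1. They ran from 2.595% to 7.791% in day 9 replicate 1 and from 1.883% to 8.102% in day 9 replicate 2. By the highest marker, day 5 replicate 1 lay above both day 9 libraries, so the order depends on the marker read.

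Single genes kept apart included eggshell proteins. Vitelline membrane protein Vm26Aa-like (MSTRG.2241) was at 3.27 and 10.1 FPKM at day 5 and at 41.3 and 42.6 FPKM at day 9, with 2180 and 1638 FPKM in day 9 ovary (2.64 ± 0.38, adjusted p = 0.00146). As an alternative, the ovarian share of each fat body library times the ovary level was subtracted, with negative results set to 0. For MSTRG.2241 this exceeded the level in both day 9 libraries, which were set to 0, so no fold change is read from it. Skin secretory protein xP2-like (MSTRG.2533) was at 3.61 and 11.6 and then 79.9 and 58.4 FPKM (3.19 ± 0.41, adjusted p = 0.00079), and both day 9 libraries were again set to 0 by the subtraction. Chorion protein S16 (MSTRG.3904) was at 134 FPKM in day 9 replicate 1 and at 1.74 FPKM in replicate 2, so a single library held its signal (adjusted p = 0.445). The vitellogenin receptor (MSTRG.8753), which takes yolk into the oocyte and was picked here after its values were seen, was at 0.916 and 2.58 and then at 13.7 and 8.43 FPKM (2.17 ± 0.45, adjusted p = 0.0106), and its call ended without day 5 replicate 1 (0.102) or day 9 replicate 1 (0.0702). The subtraction set it to 0 in all 4 libraries, as it did oskar, which is itself one of the markers.

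Other genes kept apart are not known as eggshell proteins. Maltase 2-like (MSTRG.8324), an alpha-glucosidase, had the highest mean of the 432 in day 9 fat body, at 93.8 and 109 and then 225 and 189 FPKM, with 3279 and 3414 FPKM in day 9 ovary (1.02 ± 0.19, adjusted p = 0.00697). Its call ended without day 5 replicate 1 (adjusted p = 0.0684), and after subtraction of the ovarian share it stood at 90 and 98.8 and then 92.5 and 91.8 FPKM, with a fold change of -0.03. Juvenile hormone epoxide hydrolase 1-like (MSTRG.9415), a hormone-degrading enzyme by name, rose from 4.6 and 8.7 to 25.2 and 22.6 FPKM (1.75 ± 0.23, adjusted p = 0.00079). LSM14 homolog A (MSTRG.1480), a translational repressor of messenger granules, was at 30.7 and 32.6 and then at 49.8 and 30.1 FPKM, with overlapping groups (adjusted p = 0.542). In a fit to the 4 libraries compared the calls of MSTRG.2241, MSTRG.2533, MSTRG.8324, MSTRG.8753, MSTRG.9415 and MSTRG.1212 ended, as did those of the 2 croquemort genes. After subtraction of the ovarian share those of MSTRG.8324, MSTRG.8753, MSTRG.9415 and MSTRG.1212 ended.

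**Figure D5:**
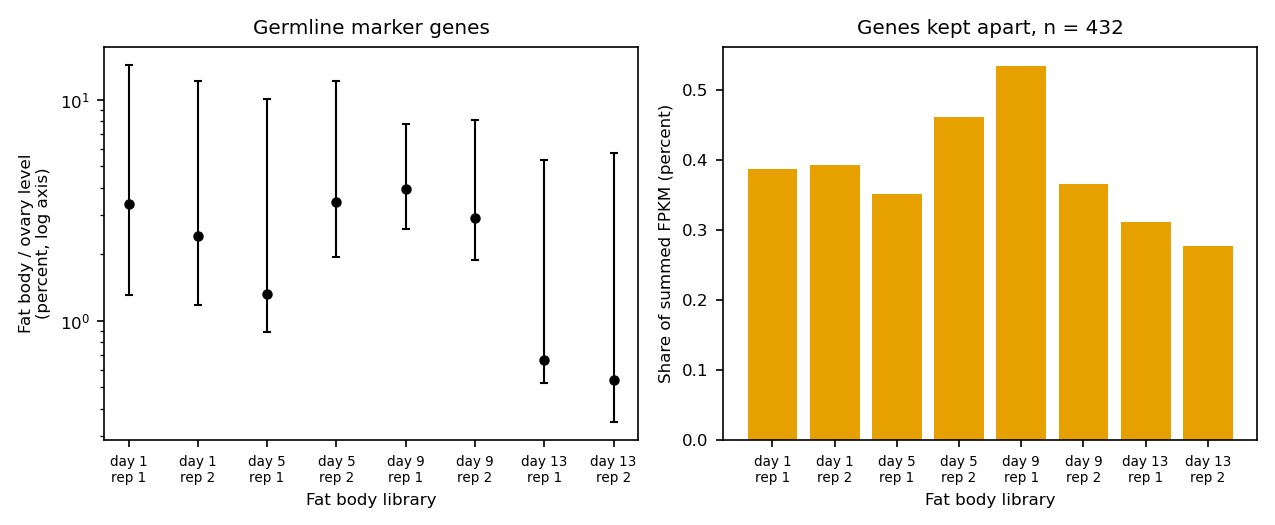
Left, level of the germline marker genes in each of the 8 fat body libraries as a percentage of the ovary mean of the same age, on a log axis, with the median as a point and the lowest and highest marker as bar ends; right, the share of all summed FPKM held by the 432 genes kept apart, in percent. The median of day 5 replicate 1 lies at 1.33%, below those of day 5 replicate 2 at 3.44% and the day 9 libraries at 3.95% and 2.92%, with overlapping bars.

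Genes with no product name made up 215 of the 1030 calls, beside 583 with an informative name, 208 with an uncharacterized product and 24 whose rows carried several names. Among all 8193 genes these classes held 1507, 5119, 1264 and 303 genes, in the same order. MSTRG.9931 fell from 139 and 121 to 1.61 and 0.642 FPKM, after 377 and 375 FPKM at day 1, and was listed at 0 at day 13 and in day 9 ovary (-5.98 ± 0.19, adjusted p = 2.19e-07). MSTRG.10790 fell from 32.6 and 33.5 to 1.14 and 0 FPKM (-4.54 ± 0.29, adjusted p = 1.25e-05). In the other direction, MSTRG.10578 was listed at 0 and at 65.3 FPKM at day 5 and stood at 652 and 449 FPKM at day 9 (6.06 ± 1.63, adjusted p = 0.0393). MSTRG.1519 was at 2.22 and 109 and then at 1542 and 294 FPKM (5.17 ± 1.45, adjusted p = 0.0474). In ovary MSTRG.1519 was at 351 and 40.4 FPKM at day 5 and at 573 and 902 FPKM at day 9. Its call ended with the ovarian share subtracted, with quantile normalization and with the replicate block. Both rising calls ended with a pseudocount of 0.1, without the filter, and in fits to the 4 libraries compared and to the 8 fat body libraries. The calls of MSTRG.10578 and MSTRG.1519 ended without day 5 replicate 1 (adjusted p = 0.225 and 0.302), day 9 replicate 1 (0.129 and 0.206) or day 9 replicate 2 (0.13 and 0.0667), while those of the falling pair held throughout.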

How the data were processed

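Gene levels came from RNA sequencing of 16 libraries, 2 for each of ovary and fat body at 4 ages. The deposited table holds FPKM values that the authors computed per gene, with no counts. Per the submitters' processing notes the tools included HISAT2 2.0, StringTie 1.3.0 and Bowtie 0.12.2, with no roles given, and the build named there, mm8, is a mouse build. The build of the fly is not given in the sources used here, and no coordinates are printed. Absolute depth is unknown. Steps among the lowest values gave fat body depths between 0.928 and 1.04 of that of day 5 replicate 1.

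FPKM values as deposited were taken as log2(FPKM + 1), without further scaling. They were fitted with limma 3.58.1 in R 4.3.3, as group means with a trended prior variance and robust moderation, and p-values were adjusted by Benjamini-Hochberg over genes whose mean reached 1 FPKM in any of the 8 groups. The fit was tested on simulated data. Tables and figures were made in Python 3.11.15 with pandas 2.3.3, numpy 2.4.6 and matplotlib 3.10.9. A subtraction of ovarian RNA used the median ratio to ovary over the germline markers at 10 FPKM or more in ovary.

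Genes were identified by the product names in the table, since its symbol column often disagreed with them. The members and the lists were chosen with earlier results of these data known, and 4 of the 40 lists were added after values were seen. Genes were named by rule: in each direction the 12 called genes with the largest fold change, no overlap and a mean of at least 10 FPKM, up to 3 called genes per list, every vitellogenin, the 6 most abundant genes kept apart and 2 genes without a name per direction. Alternatives covered the pseudocount, filter, scaling, libraries fitted, moderation, replicate block, fold threshold, ovarian share and each library left out.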

Additional observations from a re-analysis of the deposited data

Results flagged for a closer look

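The step from day 5 to day 9 differed between fat body and ovary in the limma interaction test for 26.3% of the 10213 genes tested. Of the 31 vitellogenins and genes with large fat body changes whose difference is given here, 25 passed. Most of these genes were picked for the size of their fat body step, so their count is a description only. Values are the fat body step minus the ovary step on the log2 scale. The difference was 4.21 for cecropin-1-like (MSTRG.10386), 4.0 for PGRP-SB1-like (MSTRG.10314), 4.86 for easter (MSTRG.10385), 3.6 for CTLA-2-alpha (MSTRG.1278), 3.21 for tenascin-R-like (MSTRG.6616) and 4.46 for ryncolin-2-like (MSTRG.283). It was 3.41 for the odorant-binding protein MSTRG.9806, 3.12 for venom carboxylesterase-6 (MSTRG.1030), 2.52 for UDP-glucuronosyltransferase (MSTRG.4934) and 3.6 for phosphoenolpyruvate carboxykinase (MSTRG.1223).

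A lower fat body step gave differences of -7.28 for pupal cuticle protein (MSTRG.1623), -4.57 for LCP-30 (MSTRG.2130), -4.42 for cuticle protein 8 (MSTRG.3006), -3.53 for MSTRG.6578, -2.59 for ABD-4 (MSTRG.2131), -2.92 for SgAbd-2 (MSTRG.887) and -3.92 for SgAbd-5 (MSTRG.11134). Among cuticle genes picked otherwise, cuticle protein 16.8 (MSTRG.4089) had a difference of 4.4 (adjusted p = 0.000257) and cuticle protein 7 (MSTRG.3009) did not pass (-1.1, adjusted p = 0.282). The cation channel MSTRG.6469 differed by -3.11 and slit homolog 2 (MSTRG.6118) by -2.11. Vitellogenins went both ways. The 3 that rose in fat body had differences of -1.70 (MSTRG.10714), -2.35 (MSTRG.3414) and -1.55 (MSTRG.3415). MSTRG.3977, MSTRG.3979 and MSTRG.3980 had differences of 1.80, 5.94 and 5.27, and MSTRG.3980 went from 2373 and 2070 FPKM in day 5 ovary to 29.6 and 33.6 FPKM in day 9 ovary. The 6 that did not pass were MSTRG.3974 (2.87), MSTRG.3978 (2.01), MSTRG.10715 (-3.81), sarcocystatin-A-like (MSTRG.9836, -0.91), laccase-1 (MSTRG.5986, -0.9) and mucin-19 (MSTRG.3619, -1.18).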

How the results depend on the processing

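The count of 1030 called genes (484 higher, 546 lower) depended most on which libraries set the spread. It was 533 (255 higher, 278 lower) in a fit to the 4 libraries compared and 648 (308 higher, 340 lower) in one to the 8 fat body libraries. Among the 77 called genes named, 20 lost the call in the first of these fits and 13 in the second. Leaving out 1 library gave 538 to 913 calls, with 265 to 414 higher and 273 to 499 lower. A further demand of a log2 fold change of at least 1 left 362 lower calls. The cause was not tested. Median-of-ratios scaling moved the median of all tested genes by 0.07 and turned the split to 643 higher and 526 lower, or 55.0% higher in place of 47.0%. The genes kept apart numbered 1217 at a ratio of 5, 161 at a ratio of 20 and 83 with a member threshold of 5 FPKM. The difference between tissues passed for 2349 to 2989 genes under the other settings and for 1972 to 2480 without 1 library. Same-numbered libraries did not deviate together (correlation -0.083 between day 5 and day 9 of fat body), and the fit with the replicate block called 864 genes (423 higher, 441 lower). With the ovarian share subtracted, 5 fold changes turned sign, to -2.76 for MSTRG.2241, 1.22 for MSTRG.3979, -0.03 for MSTRG.8324, -2.91 for MSTRG.2533 and -0.98 for MSTRG.1480. The subtraction set both day 9 libraries of MSTRG.2241 and MSTRG.2533 to 0, so their signs follow from its construction, and it set 1 library of MSTRG.3979 to 0. Of 77 called genes named, 17 lost the call without day 5 replicate 1, 6 without day 5 replicate 2, 11 without day 9 replicate 1 and 9 without day 9 replicate 2. Without 1 library the log2 fold changes of genes that turned sign ran from -1.03 to 0.12 for MSTRG.3974, from -1.10 to 1.31 for MSTRG.3978, from -1.71 to 1.24 for MSTRG.3979, from -0.21 to 5.41 for MSTRG.3904 and from -0.07 to 0.64 for MSTRG.1480.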

Other observations

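One abundant transcript at day 9 came from a single library. The gene MSTRG.2244, named male accessory gland serine protease inhibitor-like and chosen after its values were seen, was at 0.25 and 0.386 FPKM in day 5 fat body and at 2.11 and 429 FPKM in day 9 fat body (limma adjusted p = 0.257). It was not called, and the groups did not overlap. Without day 9 replicate 1 it passed the test (log2 fold change 8.35, adjusted p = 0.0474).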
